A study of Mus musculus with 6 samples.

Results

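Translation initiation factors bring the ribosome, the initiator transfer RNA and the messenger RNA together at the start codon. Their genes are described here in CD8 T cells sorted from mouse pancreas. They were chosen by name, as all genes whose symbol in the array's annotation begins with Eif and a digit, leaving out Eif2ak2, a kinase gene induced by interferon. That gave 48 of the 19929 named genes, measured by 57 probe sets. Of the 48 genes, 41 had 1 probe set and 7 had several, and for those 7 the probe set with the highest mean over the 6 arrays was used. A further 10 probe sets that the annotation shares between genes were left out, so that Eif3j1, Eif3j2 and Eif4ebp3 have no value. Eif1, Eif2s1, Eif3g and Eif4g1 were not analysed here.

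All mice were of C57BL/6.H2g7/g7 background and carried AI4, a transgenic T cell receptor from beta cell-reactive CD8 T cells. The first group is 3 arrays of AI4 cells from AI4 mice, which developed type 1 diabetes (T1D). The second is 3 arrays of AI4 cells from Rip-B7xAI4 mice, a line resistant to T1D. In these mice the rat insulin promoter (Rip) drives the inhibitory ligand B7x, so the transgene acts in beta cells and not in the T cells that were measured. Cells of pooled pancreata were sorted for CD8 and for binding of a MimA2/H-2Db tetramer, so each array stands for a pool. How many mice a pool held, and their ages, the sources used here do not say. The comparison asks how the same T cells differ when B7x is present on beta cells, and B7x and freedom from disease cannot be told apart in it.

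Initiation proceeds in steps. eIF2 carries the initiator transfer RNA to the small ribosomal subunit together with eIF1, eIF1A, eIF3 and eIF5, while eIF4E binds the cap of the messenger RNA, and eIF4G and the helicase eIF4A join it to the ribosome. The best known brakes are kinases that phosphorylate eIF2 under stress, which blocks its exchange factor eIF2B, and the eIF4E-binding proteins, which mTOR inactivates. T cells leaving the resting state are known to raise protein synthesis before they divide.

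Markers of the labelled cell type were high on every array, and markers of some other cells differed between the sorts. All 12 measured T cell markers lay above the median of all values, with list means of 9.63 to 10.35 on the log2 scale, and Cd4 stood at 5.47 to 6.24. Rip-B7xAI4 minus AI4, Cd8b1 differed by -1 ± 0.39 (SE) and Cd8a by -0.69 ± 0.35, both with overlapping groups. Cd3e differed by 0.88 ± 0.42, with Rip-B7xAI4 above. Of 23 listed myeloid markers 22 were measured. Their mean was 8.96 and 9.02 on Rip-B7xAI4 replicates 1 and 3, and 5.99 to 6.73 on the other 4 arrays. The mean of 7 neutrophil markers was 7.90 and 7.81 on the same 2 arrays and 5.72 to 5.93 elsewhere. Within that list S100a8, S100a9, Cxcr2 and Csf3r were raised on those arrays. Ly6g, Mpo and Elane were not, with group differences of -0.02, -0.10 and -0.14 and their highest values on AI4 replicate 1. Rip-B7xAI4 replicate 2 also lay above every AI4 array for S100a8 (6.01) and S100a9 (7.68), but not for Cxcr2 (5.24) or Csf3r (5.66). Its myeloid mean of 6.27 lay within the AI4 range of 5.99 to 6.73. The mean of 12 duct, endothelial and stromal markers was 6.52 on AI4 replicate 2 and 5.71 to 6.17 elsewhere. On that array Sparc read 8.63 and Dcn 6.98, against at most 6.38 and 5.64 on the others. Pecam1 differed by -1.05 ± 0.31, with separate groups. No marker can be read as 0 on this scale. AI4 replicate 1 was least like the others, with correlations over tested genes of 0.725 to 0.797, against 0.802 to 0.914 among the rest. For the initiation factor genes that stood out, values without AI4 replicate 1 and without Rip-B7xAI4 replicates 1 and 3 are given too. In RNA from sorted pools, fewer cells of a type and less RNA per cell cannot be told apart.

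Promoters are shown first, since they allow the genes that stood out to be compared as sequence. Of the 48 genes, 38 have an entry in the RefSeq promoter table of build GRCm38.p6. Printed are the 100 bases before the most downstream annotated start of the 6 genes that were higher in Rip-B7xAI4 with an unadjusted p under 0.05. For Eif4e it is not known whether the probe set that was higher measures the gene behind this promoter or a copy of it elsewhere. Capitals mark the E-box CACGTG, which Myc and Max bind, the ETS motif CCGGAAGT, and the CCAAT box, each searched on both strands.
Eif1ax, chrX:159372078-159372177, plus strand: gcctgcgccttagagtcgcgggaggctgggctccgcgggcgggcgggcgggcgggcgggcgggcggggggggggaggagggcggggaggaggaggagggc
Eif2s3x, chrX:94212652-94212751, minus strand: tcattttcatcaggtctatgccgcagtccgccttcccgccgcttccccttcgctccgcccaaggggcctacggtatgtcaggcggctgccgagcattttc
Eif2ak1, chr5:143817692-143817791, plus strand: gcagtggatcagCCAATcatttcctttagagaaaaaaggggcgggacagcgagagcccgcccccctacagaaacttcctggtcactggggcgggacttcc
Eif3b, chr5:140419205-140419304, plus strand: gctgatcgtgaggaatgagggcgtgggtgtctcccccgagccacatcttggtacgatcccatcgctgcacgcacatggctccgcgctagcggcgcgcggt
Eif4e, chr3:138527168-138527267, plus strand: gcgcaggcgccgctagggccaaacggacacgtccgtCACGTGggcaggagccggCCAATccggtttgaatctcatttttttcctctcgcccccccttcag
Eif4e2, chr1:87213839-87213938, plus strand: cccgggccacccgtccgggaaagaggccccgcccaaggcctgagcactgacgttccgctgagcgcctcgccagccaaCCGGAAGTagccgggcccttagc

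Eif4e had an E-box at position -64 and a CCAAT box at -46, Eif4e2 an ETS motif at -23 and Eif2ak1 a CCAAT box at -88, counted back from the annotated start. Eif1ax, Eif2s3x and Eif3b held none of these letters in the window. Over all 38 genes with an entry, 5 (13.2%) had the E-box, beside 3.10% of 27025 genes in the table. The ETS motif was present in 5 of 38 (13.2%, beside 2.05% of all) and the CCAAT box in 10 of 38 (26.3%, beside 19.1%). The windows of initiation factor genes were richer in G and C, with a median of 66% beside 54% over all genes. Many messages of the translation machinery begin with a C and a run of pyrimidines, a tract through which mTOR controls their translation. A C at the annotated start followed by 4 pyrimidines was found in 2 of 38 genes (5.26%), Eif2s3x and Eif3f, and in 2.49% of all genes. These matches describe letters in a window and not binding.

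Most initiation factor genes had somewhat higher values in cells from Rip-B7xAI4 mice, but no single gene passed the test over all genes. Of the 48 genes 47 were bright enough to be tested, and Eif4a3l1, a relative of Eif4a3, lay among the dimmest 30% of all genes. With p adjusted over 13950 tested genes, 0 of 47 passed 0.05 by limma, as against 0.00717% (1 gene) of all tested genes. Without adjustment 7 of 47 (14.9%) had p under 0.05, beside 8.73% of all tested genes. Of these, 6 were higher (12.8%, beside 5.56%), namely Eif1ax, Eif2s3x, Eif2ak1, Eif3b, Eif4e and Eif4e2, and 1 was lower (2.13%, beside 3.17%), Eif4ebp1. The value of Eif4e rests on 1 of its 3 probe sets, and with the mean of the 3 the count of higher genes was 5. The difference, Rip-B7xAI4 minus AI4, was above 0 for 34 of 47 genes, or 72.3%, beside 39% of all tested genes. Its median was 0.22 log2, while the median over all tested genes was -0.10. Both groups of arrays were fully separate for 9 of 47 genes, with Rip-B7xAI4 above for 7 (beside 5.99% of all tested genes) and below for 2 (beside 11.9%). This share, 19.1%, was close to the 17.9% among all tested genes.

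**Figure D1:**
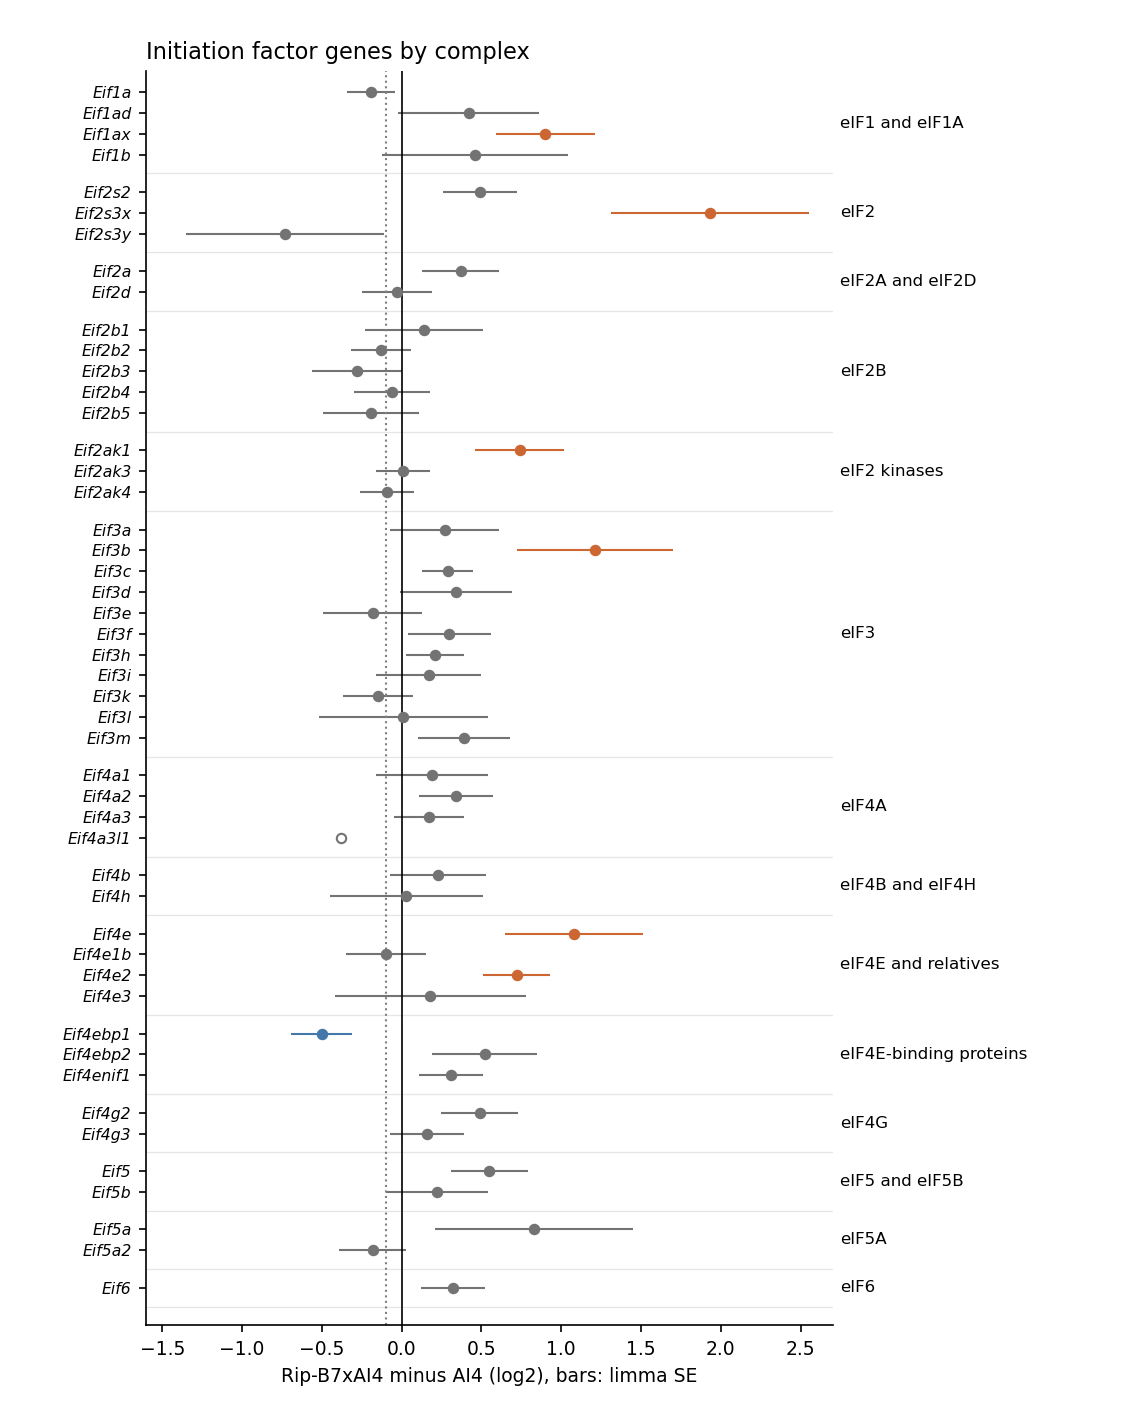
Differences in log2 expression, Rip-B7xAI4 minus AI4, for the 48 initiation factor genes by complex. Points are differences of group means (3 arrays each) and bars the standard error of limma; orange (higher) and blue (lower) mark unadjusted p under 0.05, the open circle the gene not tested, the solid line 0 and the dotted line the median of all tested genes (-0.10), and 34 of the 47 tested genes lie right of 0.

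The excess of positive signs stands beside a high level of expression. Initiation factor genes are bright in these cells: the median gene lay at the 91.5th percentile of all genes, and 35 of 47 lay above the 80th. Levels ran from 5.48 for Eif2ak4 to 11.76 for Eif3h. When all tested genes were put in 5 groups of like size by level, the median difference went from -0.17 in the dimmest group to 0.18 in the brightest. In that brightest group 64.8% of all genes had a difference above 0 and 12.3% were higher with unadjusted p under 0.05. It held 31 of the 47 initiation factor genes, of which 28 had a difference above 0, with a median of 0.31, and 6 were higher with unadjusted p under 0.05.

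The arrays also differed in spread. The interquartile range of all values was 1.71, 1.76 and 1.95 for AI4 replicates 1 to 3, and 2.13, 1.93 and 1.81 for Rip-B7xAI4. Quantile normalization makes these equal. After it the median difference of the initiation factors was 0.03 while that of all genes stayed at -0.10, and 26 genes were above 0 and 21 below, or 55.3% above 0 beside 37.7% of all genes. In those values 2 genes were higher with unadjusted p under 0.05, Eif2s3x and Eif4e2, and 2 were lower, Eif1a and Eif4ebp1. That share, 8.51%, was close to the 8.22% of all genes in the same fit.

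**Figure D2:**
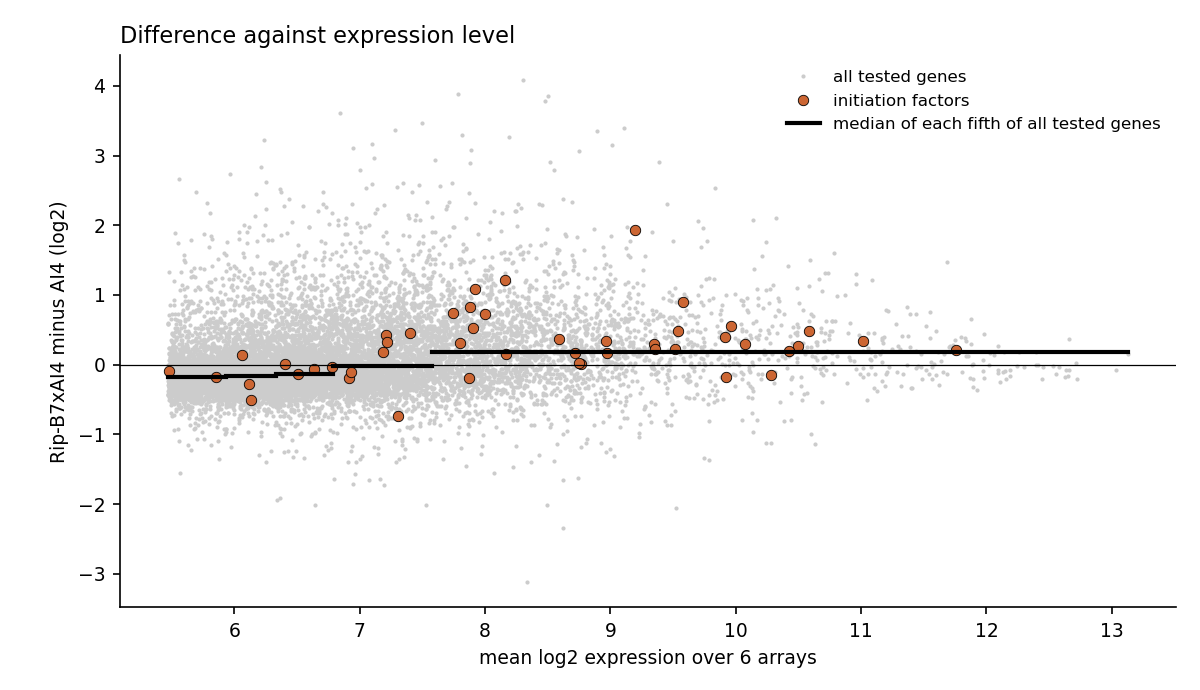
Difference in log2 expression (Rip-B7xAI4 minus AI4) against mean log2 expression over 6 arrays, with all 13950 tested genes in grey and 47 initiation factor genes in orange. Black lines give the median of all tested genes in 5 groups by level, from -0.17 in the dimmest to 0.18 in the brightest, where 28 of 31 initiation factors lie above 0.

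All values of single arrays and all differences are on the log2 scale. By array, the mean of the 47 genes was 8.14, 8.16 and 8.29 for AI4 and 8.67, 8.47 and 8.23 for Rip-B7xAI4, in replicate order. Rip-B7xAI4 replicates 1 and 2 lay above every AI4 array, and replicate 3 lay among them. Rip-B7xAI4 replicate 1 held the highest value of 20 of the 47 genes, and AI4 replicates 2 and 1 held the lowest value of 17 and 13. Leaving out Rip-B7xAI4 replicate 1 gave a median difference of 0.12, with 3 genes higher at unadjusted p under 0.05, and 6.38% of the 47 genes called in either direction beside 5.48% of all genes in that fit. Leaving out AI4 replicate 2 gave 0.23 with 3 higher (8.51% called, beside 6.36%), and leaving out AI4 replicate 1 gave 0.17 with 6 higher (12.8%, beside 7.89%). With Rip-B7xAI4 replicates 1 and 3, the arrays with high myeloid markers, both left out, the median was 0.23. Then Eif3l alone was higher and Eif2s3y alone lower at unadjusted p under 0.05 (4.26% called, beside 4.40% of all genes), in a fit where the single array left is taken to vary as much as the AI4 arrays do.

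eIF1 and eIF1A keep the scanning ribosome open for start codon selection, and the X-linked eIF1A gene stood out. Eif1ax read 9.74, 8.50 and 9.14 on the AI4 arrays and 10.09, 9.97 and 10.03 on the Rip-B7xAI4 arrays. Its Rip-B7xAI4 values were close together and above all of AI4, where the spread was wider. The difference was 0.90 ± 0.31 (SE, n = 3 per group), with adjusted p = 0.53 by limma. It came to 1.21 ± 0.24 with AI4 replicate 1 left out and to 0.84 ± 0.53 without Rip-B7xAI4 replicates 1 and 3. Leaving out any other single array gave 0.59 to 0.93, with unadjusted p of 0.0507 to 0.0643 by limma. In 9 of 16 fits, the one reported and 15 alternatives, unadjusted p was under 0.05. Eif1a, an autosomal gene for nearly the same protein, read 7.95, 8.01 and 7.95 with AI4 against 7.84, 7.81 and 7.69 with Rip-B7xAI4. There the Rip-B7xAI4 arrays were lowest, with a difference of -0.19 ± 0.15. Copies this close can share probe signal, so their separate values are uncertain. Eif1ad and Eif1b, a distant relative and a second eIF1 gene, differed by 0.42 ± 0.44 and 0.46 ± 0.58, with overlapping groups.

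eIF2 is the trimer that delivers the initiator transfer RNA, and the X-linked gene of its gamma subunit had the largest difference of the 47. Eif2s3x read 6.86, 8.42 and 9.42 on the AI4 arrays and 10.42, 10.34 and 9.74 on the Rip-B7xAI4 arrays. The groups were separate, and most of the spread lay within AI4 (SD 1.29, against 0.37 in Rip-B7xAI4), whose replicate 1 was lowest. The difference was 1.93 ± 0.62 (SE, n = 3 per group), with adjusted p = 0.504 by limma. Without AI4 replicate 1 it was 1.25 ± 0.37, and without Rip-B7xAI4 replicates 1 and 3 it was 2.11 ± 1.02. Over 16 fits, the one reported and 15 alternatives, unadjusted p was under 0.05 in 14. Its Y-linked counterpart Eif2s3y read 8.35, 7.86 and 6.80 with AI4 against 7.95, 5.79 and 7.09 with Rip-B7xAI4, with overlap and a difference of -0.73 ± 0.62. Leaving out 1 array moved it between -1.23, without Rip-B7xAI4 replicate 1, and -0.15, without replicate 2, and it was -1.88 ± 0.65 without replicates 1 and 3 of that group. The beta subunit gene Eif2s2 differed by 0.49 ± 0.23, but a dimmer probe set of the same gene gave -0.41 ± 0.39. Which set measures Eif2s2 itself was not tested. Eif2a and Eif2d, which can deliver transfer RNA without eIF2, differed by 0.37 ± 0.24 and -0.03 ± 0.22.

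eIF2B recharges eIF2 with GTP, and 4 of its 5 subunit genes had a difference below 0. None of the 5 had an unadjusted p under 0.05 by limma, and all had overlapping groups. Eif2b5, the catalytic epsilon subunit, read 6.48, 7.39 and 7.17 on the AI4 arrays and 7.20, 6.77 and 6.48 on the Rip-B7xAI4 arrays, a difference of -0.19 ± 0.30 (SE). The 5 differences ran from -0.28 for Eif2b3 to 0.14 for Eif2b1. Their median of -0.13 was near the -0.10 of all tested genes, and these are among the dimmer initiation factor genes.

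Of the stress kinases of eIF2, Eif2ak1, which haem shortage activates, had higher values in Rip-B7xAI4, and Eif2ak3 and Eif2ak4 had differences near 0. Eif2ak1 read 7.23, 7.20 and 7.69 on the AI4 arrays and 7.81, 7.89 and 8.64 on the Rip-B7xAI4 arrays. The groups were separate, with Rip-B7xAI4 replicate 3 the highest array. The difference was 0.74 ± 0.28 (SE, n = 3 per group; adjusted p = 0.553 by limma), and 0.52 ± 0.32 without Rip-B7xAI4 replicates 1 and 3. Without AI4 replicate 1 it was 0.67 ± 0.32, with unadjusted p = 0.0866 by limma. Of 16 fits, 10 gave an unadjusted p under 0.05. This kinase is best known from erythroid cells. Alas2, a haem synthesis enzyme of those cells and the 1 measured gene of a list of 6, was also highest on Rip-B7xAI4 replicate 3, at 9.92 against 6.25 to 7.15 on the other arrays, and its part in the result was not tested.

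Eif2ak3, the kinase of endoplasmic reticulum stress, read 6.52, 6.25 and 6.44 with AI4 against 6.40, 6.55 and 6.28 with Rip-B7xAI4, a difference of 0.01 ± 0.17. Eif2ak4, which senses amino acid shortage, read 5.58, 5.35 and 5.64 with AI4 against 5.26, 5.50 and 5.54 with Rip-B7xAI4, a difference of -0.09 ± 0.17. Both differences were smaller than the spread between replicates.

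eIF3 is the large scaffold on the small subunit, and 9 of its 11 measured genes (81.8%) had a difference above 0. All 11 belong to the brightest of the 5 groups by level. In that group 64.8% of all genes were above 0 and 12.3% were higher at unadjusted p under 0.05. Of the 11 genes, 1 was higher and 0 lower at that limit (9.09% called, beside 8.73% of all tested genes). That was Eif3b, a core subunit, which read 7.63, 7.24 and 7.79 on the AI4 arrays and 9.92, 8.28 and 8.07 on the Rip-B7xAI4 arrays. The groups were separate, but Rip-B7xAI4 replicate 1 stood well above all others. The difference was 1.21 ± 0.49 (SE, n = 3 per group; adjusted p = 0.566 by limma). It was 0.63 ± 0.23 without Rip-B7xAI4 replicate 1 and 0.73 ± 0.32 without replicates 1 and 3 of that group. Without AI4 replicate 1 it was 1.25 ± 0.59, with unadjusted p = 0.0823 by limma. Of 16 fits, 11 gave an unadjusted p under 0.05. Eif3c, another core subunit, had means of 9.93 ± 0.11 in AI4 and 10.22 ± 0.10 in Rip-B7xAI4 (SD, n = 3), also separate, for a difference of 0.29 ± 0.16 (SE). Eif3a, the largest subunit, read 10.85, 9.68 and 10.54 on the AI4 arrays and 10.84, 10.79 and 10.26 on the Rip-B7xAI4 arrays, with overlap and a difference of 0.27 ± 0.34. The other 8 genes had overlapping groups and differences from -0.18 for Eif3e to 0.39 for Eif3m, whose dimmer probe set gave 0.10 ± 0.22. The mean of the 11 genes by replicate was 9.59, 9.49 and 9.62 for AI4 and 10.18, 9.90 and 9.39 for Rip-B7xAI4, so that replicate 3 of Rip-B7xAI4 was the lowest of all arrays.

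For the cap-binding protein eIF4E, the sign depended on the probe set. By the brightest probe set, Eif4e read 6.52, 7.52 and 8.10 on the AI4 arrays and 8.65, 8.77 and 7.96 on the Rip-B7xAI4 arrays. The groups overlapped through AI4 replicate 3, and the difference was 1.08 ± 0.43 (SE, n = 3 per group; adjusted p = 0.566 by limma). Leaving out AI4 replicate 1 gave 0.65 ± 0.33, and leaving out Rip-B7xAI4 replicates 1 and 3 gave 1.39 ± 0.66. Of 16 fits, 8 gave an unadjusted p under 0.05. Probe set 10496485 of the same gene read 5.71, 5.82 and 5.69 with AI4 against 6.03, 5.69 and 5.49 with Rip-B7xAI4, a difference of -0.01 ± 0.19. Probe set 10496490 read 6.92, 6.69 and 6.64 with AI4 against 6.38, 6.50 and 6.31 with Rip-B7xAI4, a difference of -0.35 ± 0.17 in which every Rip-B7xAI4 array was below every AI4 array. With the mean of the 3 probe sets the difference was 0.24 ± 0.20. Where each probe set matches is not stated in the sources used here. The brightest may measure a copy of Eif4e elsewhere in the genome. Its 1.08 cannot be taken as the value of the gene itself. Among the 41 genes with 1 probe set, probe set numbers were grouped by chromosome. The brightest sets of Eif4e, Eif2s2, Eif3m, Eif4a1 and Eif5a had numbers apart from those of their gene's chromosome. The values of Eif2s2, Eif3m, Eif4a1 and Eif5a therefore carry the same limit, and where these sets match was not tested.

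**Figure D3:**
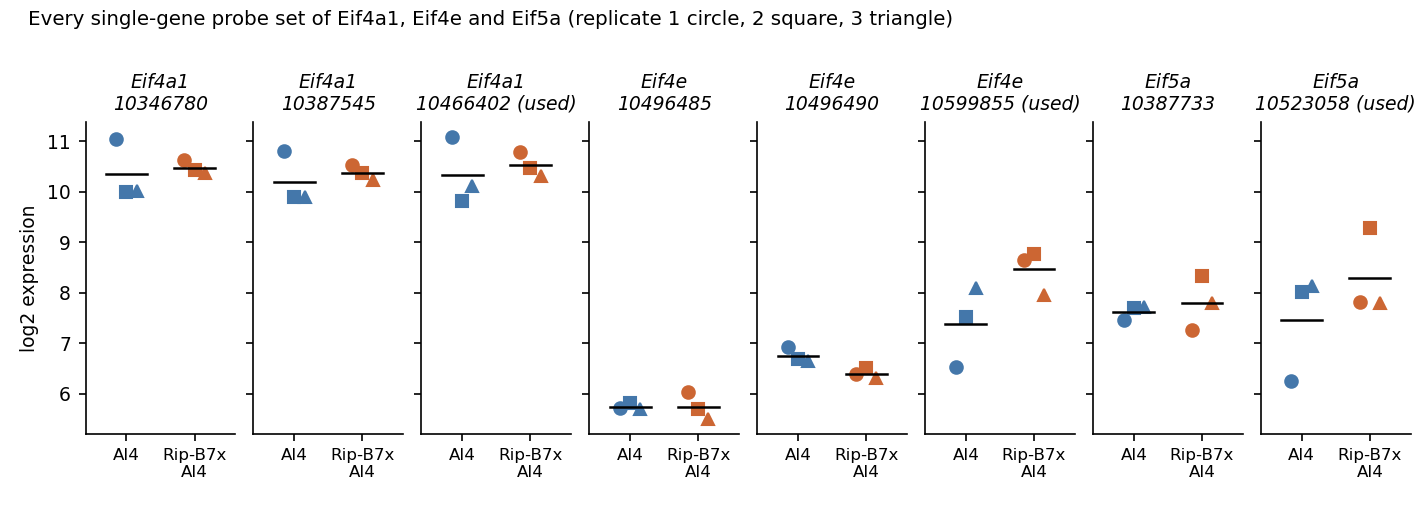
Log2 expression on each array for every single-gene probe set of Eif4a1, Eif4e and Eif5a, with AI4 in blue, Rip-B7xAI4 in orange and black lines for group means; titles give the probe set and mark the one used. The Eif4a1 probe sets gave differences of 0.12 to 0.19, those of Eif4e -0.35 to 1.08, and those of Eif5a 0.17 and 0.83.

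Eif4e2, a relative that binds caps and is known for repressing messages, had the smallest p of the 47 genes. It read 7.41, 7.53 and 7.97 on the AI4 arrays and 8.55, 8.25 and 8.29 on the Rip-B7xAI4 arrays. The groups were separate, with SDs of 0.30 in AI4 and 0.16 in Rip-B7xAI4, beside medians of 0.33 and 0.30 over the 47 genes. The difference was 0.72 ± 0.21 (SE, n = 3 per group), with adjusted p = 0.473 by limma. Without AI4 replicate 1 it was 0.61 ± 0.22. Unadjusted p was under 0.05 in 15 of 16 fits. The exception was the fit without Rip-B7xAI4 replicates 1 and 3, which gave 0.61 ± 0.33. Eif4e3, which binds the cap in another way, read 6.54, 7.94 and 6.80 with AI4 against 8.48, 6.94 and 6.39 with Rip-B7xAI4. Its difference of 0.18 ± 0.60 was -0.43 ± 0.46 without Rip-B7xAI4 replicate 1. Eif4e1b, known from germ cells, differed by -0.10 ± 0.25.

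**Figure D4:**
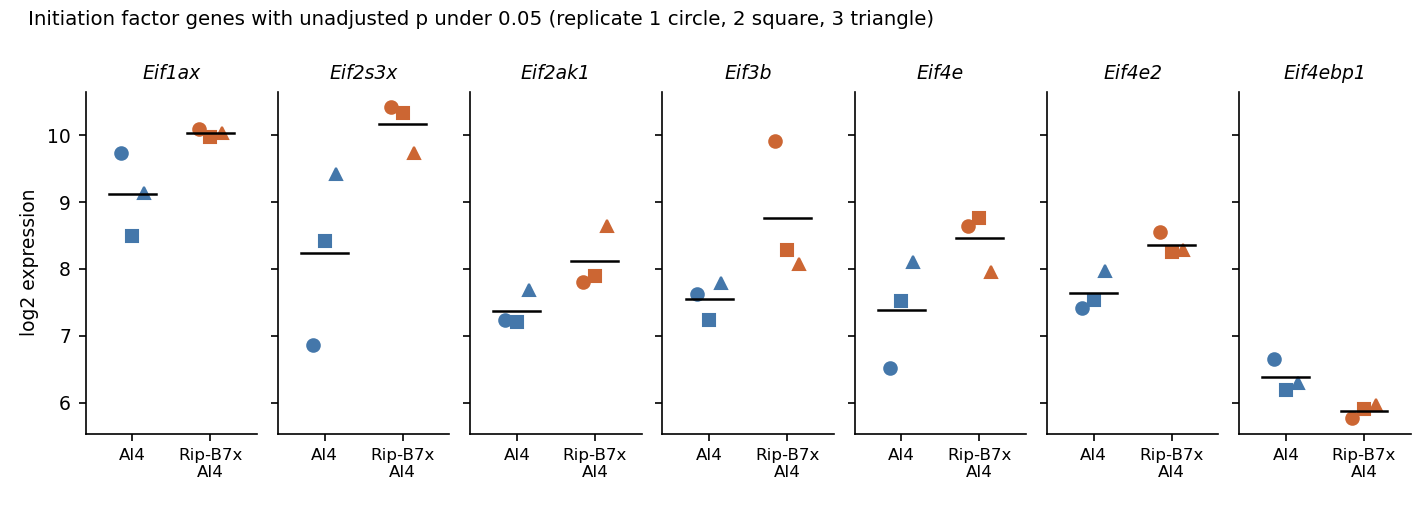
Log2 expression on each array of the 7 initiation factor genes with unadjusted p under 0.05, with AI4 in blue, Rip-B7xAI4 in orange and black lines for group means. The groups are separate for Eif1ax, Eif2s3x, Eif2ak1, Eif3b, Eif4e2 and Eif4ebp1 and overlap for Eif4e.

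Among the binding proteins that hold eIF4E back until mTOR phosphorylates them, Eif4ebp1 was the 1 gene of the 47 with lower values at unadjusted p under 0.05. It read 6.65, 6.19 and 6.29 on the AI4 arrays and 5.77, 5.90 and 5.97 on the Rip-B7xAI4 arrays. All of Rip-B7xAI4 lay below all of AI4, at levels near the array medians of 5.94 to 6.10. The difference was -0.50 ± 0.19 (SE, n = 3 per group; adjusted p = 0.553 by limma). It was -0.36 ± 0.17 when AI4 replicate 1 was left out and -0.48 ± 0.30 when Rip-B7xAI4 replicates 1 and 3 were, and unadjusted p was under 0.05 in 9 of 16 fits. Eif4ebp2, with the same role, had the opposite sign. It read 7.64, 7.31 and 7.97 on the AI4 arrays and 8.83, 7.72 and 7.93 on the Rip-B7xAI4 arrays, a difference of 0.52 ± 0.33 with overlap, and 0.08 ± 0.35 without Rip-B7xAI4 replicates 1 and 3. Eif4enif1, which carries eIF4E into the nucleus, differed by 0.31 ± 0.20, and by -0.06 ± 0.20 on its dimmer probe set.

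The helicase genes of the cap complex differed little, all with overlapping groups. Eif4a1 read 11.09, 9.81 and 10.11 on the AI4 arrays and 10.79, 10.46 and 10.31 on the Rip-B7xAI4 arrays, with AI4 replicate 1 the highest array. Its difference was 0.19 ± 0.35 (SE), and 0.56 ± 0.22 without AI4 replicate 1. Eif4a2, the closest relative, read 10.49, 10.88 and 11.17 with AI4 against 11.26, 11.32 and 10.96 with Rip-B7xAI4 (0.34 ± 0.23). Eif4a3, the helicase of the exon junction complex, read 8.77, 8.89 and 8.22 with AI4 against 8.92, 8.67 and 8.82 with Rip-B7xAI4 (0.17 ± 0.22). Eif4b and Eif4h, cofactors of the helicase, differed by 0.23 ± 0.30 and 0.03 ± 0.48. The untested Eif4a3l1 read 4.92, 5.82 and 4.38 with AI4 against 4.32, 5.18 and 4.49 with Rip-B7xAI4.

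Of the scaffold genes, Eif4g2, whose protein lacks the part that binds eIF4E, read 10.22, 10.15 and 10.66 on the AI4 arrays and 11.12, 10.88 and 10.50 on the Rip-B7xAI4 arrays, a difference of 0.49 ± 0.24. Eif4g3 read 7.98, 7.82 and 8.46 with AI4 against 8.49, 8.20 and 8.06 with Rip-B7xAI4, a difference of 0.16 ± 0.23. In both the groups overlapped.

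The late factors mostly had differences above 0. Eif5, which triggers GTP hydrolysis by eIF2 at the start codon, was 9.68 ± 0.35 (SD, n = 3) in AI4 and 10.23 ± 0.23 in Rip-B7xAI4, with separate groups and a difference of 0.55 ± 0.24 (SE; adjusted p = 0.566 by limma). Eif5b, which joins the ribosomal subunits, differed by 0.22 ± 0.32. Eif5a, the hypusine-bearing factor that eases elongation, read 6.24, 8.01 and 8.14 on the AI4 arrays and 7.81, 9.27 and 7.79 on the Rip-B7xAI4 arrays. Its groups overlapped, with a difference of 0.83 ± 0.62 on its brightest probe set and 0.17 ± 0.29 on the other. Without AI4 replicate 1 the brightest gave 0.22 ± 0.49. Which set measures Eif5a itself was not tested. Eif5a2, its less widely expressed relative, read 6.13, 6.02 and 5.67 with AI4 against 5.61, 5.66 and 6.02 with Rip-B7xAI4 (-0.18 ± 0.21). Eif6, which keeps the ribosomal subunits apart, read 6.78, 7.18 and 7.22 with AI4 against 7.41, 7.56 and 7.17 with Rip-B7xAI4 (0.32 ± 0.20), with overlap.

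Other genes of the pathway were followed as 6 lists, in which 0 genes passed an adjusted p of 0.05 by limma. In counts at unadjusted p under 0.05, the background was 5.56% higher and 3.17% lower. Of 18 tested partners of the cap complex, 1 was higher and 1 lower, with a median difference of 0.06. Paip1, a partner of the poly(A)-binding protein, was higher by 1.28 ± 0.52 (SE) with overlapping groups, and Mknk1, a kinase of eIF4E, was lower, with a difference of -0.49 ± 0.19 and separate groups. Pabpc1, the poly(A)-binding protein itself, differed by 0.44 ± 0.21. Pdcd4, which blocks eIF4A, read 10.59, 10.70 and 11.06 on the AI4 arrays and 10.42, 10.46 and 9.92 on the Rip-B7xAI4 arrays, separate groups with a difference of -0.51 ± 0.23.

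Of 19 tested genes of mTORC1 and its inputs, 1 was higher and 0 lower at unadjusted p under 0.05, and the median was -0.05. The gene was Lamtor3, part of the lysosomal anchor of mTORC1 (1.36 ± 0.50, SE, with overlap). Mtor itself differed by -0.27 ± 0.21, its inhibitor Akt1s1 by -0.37 ± 0.22, and the sestrins Sesn1 and Sesn3, stress-induced inhibitors of mTORC1, by -0.78 ± 0.49 and 0.52 ± 0.37. The differences became -0.31 ± 0.40 for Sesn1 without AI4 replicate 3 and 0.17 ± 0.29 for Sesn3 without Rip-B7xAI4 replicate 1. Rps6kb1 was not analysed here.

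Of 20 tested genes of the integrated stress response, which are targets of its transcription factors, parts of the eIF2 phosphatase and regulators of the kinases, 2 were higher and 0 lower at unadjusted p under 0.05, with a median of 0.01. These were Gars, a transfer RNA synthetase (1.31 ± 0.50, SE), and Ppp1ca, a catalytic subunit of the eIF2 phosphatase (0.97 ± 0.31). Atf4, the factor whose translation goes up when eIF2 is phosphorylated, differed by 0.58 ± 0.28 and its target Ddit3 by 0.32 ± 0.34. Atf3 differed by 1.19 ± 0.66, with 9.47 on Rip-B7xAI4 replicate 1 and 6.35 to 7.14 elsewhere. Without that array the difference was 0.38 ± 0.23, and 0.27 ± 0.32 without Rip-B7xAI4 replicates 1 and 3. Without replicate 1 of Rip-B7xAI4, Atf4 was 0.35 ± 0.26, and without AI4 replicate 1 Ddit3 was 0.06 ± 0.33.

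Of 16 tested elongation, termination and recycling genes, 1 was higher and 0 lower at unadjusted p under 0.05, with a median of 0. The gene was Hbs1l, which rescues stalled ribosomes (0.78 ± 0.28, SE), and with the mean of its probe sets it differed by 0.42 ± 0.47 and was not called. Eef1a1, which brings transfer RNA, and Eef2, which moves the ribosome, differed by 0.02 ± 0.18 and 0.23 ± 0.24. Eef1b2, the exchange factor of Eef1a1, differed by -0.27 ± 0.19, Eef2k, the kinase that switches Eef2 off, by -0.40 ± 0.21, and the release factor Etf1 by 0.81 ± 0.48, which was 0.42 ± 0.46 without Rip-B7xAI4 replicate 1 and 1.34 ± 0.31 without replicate 3.

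Of 11 listed genes of polyamine metabolism and eIF5A hypusination, 7 were measured. Among them Dohh was too dim to be tested and differed by -0.38. All 6 tested genes had a difference above 0, the smallest 0.03 for Dhps, and 1 was higher at unadjusted p under 0.05. That was Azin1, the inhibitor that spares ornithine decarboxylase from antizyme, which read 6.62, 6.83 and 7.60 on the AI4 arrays and 9.25, 8.30 and 8.47 on the Rip-B7xAI4 arrays. The groups lay well apart, with a difference of 1.66 ± 0.35 (SE; adjusted p = 0.291 by limma). Odc1, the decarboxylase, differed by 0.49 ± 0.33, Srm, which makes spermidine, by 0.32 ± 0.30, and Sat1, which breaks polyamines down, by 0.78 ± 0.41. Odc1 was 0.16 ± 0.26 without Rip-B7xAI4 replicate 1 and 1.27 ± 0.57 with the mean of its probe sets, and Sat1 was -0.10 ± 0.39 without Rip-B7xAI4 replicates 1 and 3. Of 9 tested mitochondrial factors 1 was higher and 1 lower, the elongation factors Tufm (0.58 ± 0.18) and Gfm1 (-0.66 ± 0.20), both with separate groups. The release factor Mtrf1l and the recycling factor Mrrf differed by -0.68 ± 0.44 and 0.97 ± 0.64. Without AI4 replicate 1 Mtrf1l was -0.22 ± 0.30, and without Rip-B7xAI4 replicate 1 Mrrf was 0.22 ± 0.35. Of the genes called in these 6 lists, Azin1 and Gfm1 had unadjusted p under 0.05 in all 16 fits, while Paip1, Mknk1, Lamtor3, Gars, Ppp1ca, Hbs1l and Tufm each lost it in at least 1 fit without a single array.

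The cell division list differed much more, with 19 of 28 tested genes higher and 0 lower at unadjusted p under 0.05 and a median of 1.34. The spindle genes Prc1 and Kif11 and the mitotic genes Birc5 and Ube2c differed by 2.23 ± 0.27, 3.17 ± 0.53, 2.32 ± 0.40 and 1.10 ± 0.20 (SE). List means by replicate were 7.0, 6.15 and 6.23 for AI4 and 8.41, 7.93 and 7.33 for Rip-B7xAI4. Among Rip-B7xAI4 arrays, replicate 1 was highest and replicate 3 lowest both in this list and in the initiation factor mean. Among AI4 arrays the orders differed, with replicate 1 highest in this list and lowest in the initiation factor mean. Myeloid markers were high on Rip-B7xAI4 replicates 1 and 3. The part of cell division, of myeloid RNA or of stromal RNA in the initiation factor values was not tested.

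**Figure D5:**
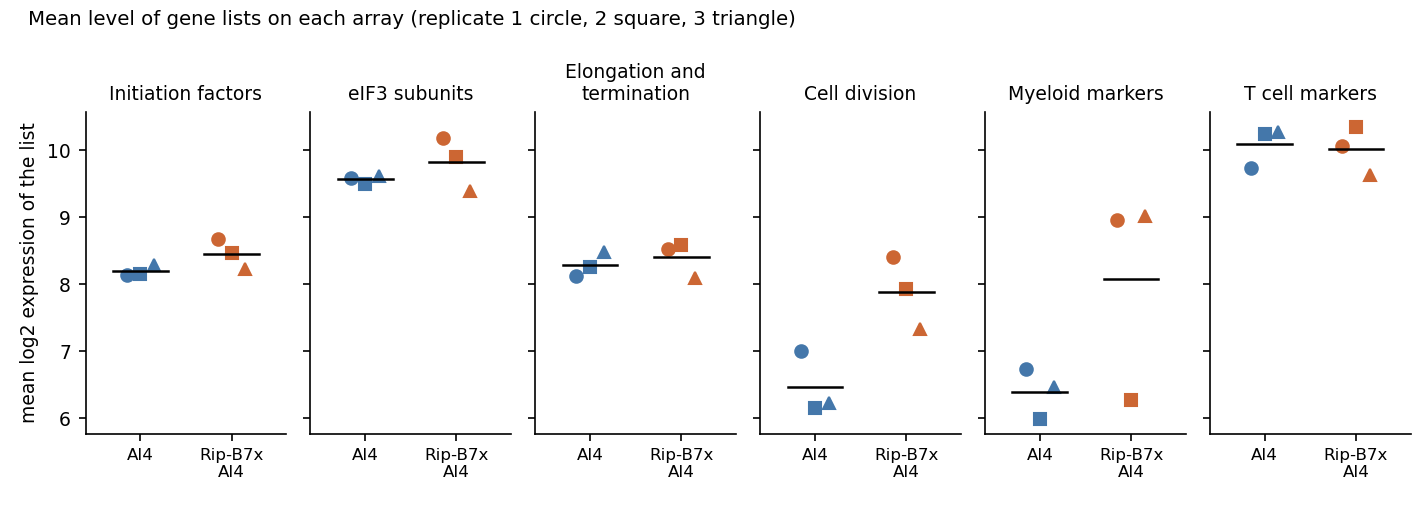
Mean log2 expression of 6 gene lists on each array, with AI4 in blue, Rip-B7xAI4 in orange and black lines for group means. Initiation factors run from 8.14 to 8.29 in AI4 and from 8.23 to 8.67 in Rip-B7xAI4, cell division genes are higher on all Rip-B7xAI4 arrays than on any AI4 array, and myeloid markers are high on Rip-B7xAI4 replicates 1 and 3.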

How the data were processed

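Total RNA of the sorted cells was hybridised to 6 single-colour Affymetrix arrays. Per the submitters' processing notes, Affymetrix Expression Console was used, and its summarisation is not stated. The authors deposited 28325 normalized values per array, 1 for each probe set, and the log2 scale of these deposited values was inferred from their range. Because no background measure was available to this work, log2 differences are given and no folds.

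Of the probe sets, 21760 had 1 gene symbol in the platform annotation, 1621 several and 4944 none. Each gene was represented by its probe set of highest mean. The 30% of 19929 genes with the lowest mean (limit 5.47) were not tested, which left 13950. They were fitted with limma 3.58.1 in R 4.3.3 (lmFit, eBayes) on the group alone, two-sided, with Benjamini-Hochberg adjustment over all tested genes. The fit was tested on simulated data. There are 3 arrays per group, whose number limits the precision, and p-values measure only the spread between these pools.

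The initiation factor genes and the lists were chosen with earlier results of these data known. Values of each array are given for genes with unadjusted p under 0.05 and for a set of best known factors and close relatives. In pathway lists, up to 4 genes with the smallest p and a set of central genes are named; array values for Pdcd4 and Azin1 were picked after the results were seen. Alternatives were a block for the replicate number, leaving out arrays, quantile normalization, median centring, other filters, the mean of probe sets, each probe set alone, eBayes with trend and robust, and array weights. Promoter windows came from the RefSeq table of GRCm38.p6.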

Additional observations from a re-analysis of the deposited data

How the results depend on the processing

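No initiation factor gene passed an adjusted p of 0.05 in limma under the 15 alternatives run, and the lowest adjusted p was 0.129, with array weights. The counts at unadjusted p under 0.05, 6 higher and 1 lower, moved more. Leaving out each array in turn gave 3 to 7 higher and 0 to 1 lower, leaving out Rip-B7xAI4 replicates 1 and 3 together gave 1 higher, quantile normalization 2 higher and 2 lower, and array weights 11 higher and 2 lower. The share called was then 8.51% after quantile normalization (8.22% of all genes in the same fit) and 27.7% with array weights (17.2% of all genes, of which 38 passed an adjusted p of 0.05). With the replicate block the counts were 6 higher and 0 lower, 12.8% called beside 7.12% of all genes in that fit. Without AI4 replicate 3 the share called was 10.6% beside 11.2% of all genes. Without Rip-B7xAI4 replicate 2 it was 10.6% beside 7.81%, and without replicate 3 of that group 14.9% beside 9.05%. Shares for the other single arrays left out are given above. The labels do not say whether equal replicate numbers are matched. Deviations of same-numbered arrays from their group means correlated at -0.08, 0.06 and -0.22, which with 3 arrays per group cannot decide it. The median difference was above 0 in all 16 fits, from 0.03 after quantile normalization to 0.43 without Rip-B7xAI4 replicate 3. Of 55 single genes followed, 43 kept their sign in every fit run for them. The sign of the other 12 turned in 24 of 831 values. Leaving out 1 array at a time gave -0.43 to 0.62 for Eif4e3, -0.08 to 0.56 for Eif4a1, -0.07 to 0.07 for Eif2ak3, -0.07 to 0.52 for Eif3a, -0.03 to 0.31 for Eif4a3 and -0.08 to 0.13 for Eef1a1. Leaving out Rip-B7xAI4 replicates 1 and 3 together gave -0.16 for Eif4e3, -0.06 for Sesn3, -0.10 for Sat1 and -0.08 for Mrrf. Quantile normalization gave -0.10 for Eif4a1, 0.00 for Eif2ak4, -0.02 for Eif3a, -0.06 for Eif4a3 and -0.07 for Eif4g3. Array weights gave 0.04 for Eif2ak4, -0.01 for Eif4a3 and -0.50 for Eif4e3, and brought Prc1, Kif11 and Birc5 past the limit (adjusted p = 0.0393 by limma). The dimmer Eif4e probe sets gave -0.01 and -0.35. The cause of these changes was not tested. A pseudocount was not tried because the values are on a log scale.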

Other observations

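Eif2s3x and Eif1ax are X-linked and Eif2s3y is Y-linked, and the sex of the pooled mice was not used here. Xist, the RNA that coats the inactive X chromosome, and the Y-linked genes Kdm5d and Uty were picked after the values of Eif2s3y were seen. Xist read 4.88, 4.99 and 9.21 on the AI4 arrays and 6.37, 8.84 and 4.48 on the Rip-B7xAI4 arrays. Kdm5d read 5.85, 7.23 and 6.67 on the AI4 arrays and 7.26, 5.48 and 6.25 on the Rip-B7xAI4 arrays. Uty, too dim to be tested, read 4.96, 5.56 and 5.01 on the AI4 arrays and 5.06, 4.71 and 4.91 on the Rip-B7xAI4 arrays. Xist was highest on AI4 replicate 3 and Rip-B7xAI4 replicate 2. Eif2s3y was lowest within its group on both arrays, at 6.80 and 5.79, but Kdm5d and Uty were lowest on Rip-B7xAI4 replicate 2 and, within AI4, on replicate 1. Eif2s3x was 9.42 on AI4 replicate 3 and 10.34 on Rip-B7xAI4 replicate 2, and the part of Xist-high material in its values was not tested.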
